A study of Homo sapiens with 52 samples.

Results

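Contacts of chromosome 1 with the nuclear lamina were described in single KBM7 cells, a human line from chronic myeloid leukaemia that is kept in culture. The members were all 100 kb bins of chromosome 1 with a value in every cell, 2255 of the 26584 such bins of the genome, with positions on hg19. The file lists 2493 bins of chromosome 1, and 238 of them held no value in any cell. Contact of a bin in a cell means a ratio of observed to expected signal (OE) of 1 or more. The contact frequency of a bin is the share of cells in contact with it, and the contact share of a cell is the share of its bins in contact.

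The method was DamID, in which the bacterial enzyme Dam is fused to a nuclear protein and marks nearby DNA by methylating the adenine of GATC sites. All cells carried the fusion of Dam to LaminB1, a protein of the lamina, and all were treated with 0.5 nM Shield1, a ligand that stabilises the fusion, for 15 h before sorting. The labels describe 52 cells of clone 14, which is 1 clone of ploidy 2N. They form 1 group, and the 51 cells with a column were used. Sorting took the smallest 2% of cells that carried both Fucci reporters of cell cycle phase, so the cells stand for that gate and not for the culture. No cells with unfused Dam and no second group were compared here. Since no label separates cultures, all cells count as 1 sample. No test between groups or p-value over cells is possible, and each SD is the spread among single cells. The ratios could be turned back into whole reads, from 50978 in cell 9 to 316463 in cell 26. A median bin of chromosome 1 at the contact threshold stood for 2.14 reads in cell 9 and 13.3 in cell 26.

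The lamina is a mesh of lamin proteins under the inner nuclear membrane. Stretches of chromosome that touch it, called lamina-associated domains, are as a rule poor in genes, rich in genes that are silent in the cell type, and replicated late. Chromosome 1 is the longest human chromosome. Textbooks describe the outer part of its short arm as gene-dense and its middle short arm as rich in gene deserts and long neuronal genes. The deposited file pairs no bin with a gene. Genes named below are therefore landmarks from the general human gene map, given as background and chosen after the regions were seen. They are a few picks and not a survey of the genes in a region. No expression was measured here, and whether gene activity or tissue differs between the regions was not tested. The 26 landmark genes were found on chromosome 1 in RefSeq's table for GRCh38.p14, and their order there followed the order of the 17 regions they are named with.

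Chromosome 1 had little contact for its size. Contacted bins made up 22.2% ± 4.86 of chromosome 1 and 32.3% ± 3.64 of the rest of the genome (SD, n = 51 cells). The lowest chromosome 1 share was 7.54% in cell 18 (95% Wilson interval 6.52% to 8.70%), the median was 22.4%, and cell 46 had the highest, 30.6% (28.7% to 32.5%). The intervals cover counting error only and count neighbouring bins as if they were independent.

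All 51 cells had a lower share on chromosome 1 than on the rest of the genome. The difference was -10.1 points ± 4.35, from -20.3 points in cell 18 to -0.272 points in cell 51. It was therefore larger than the spread between cells. Chromosome 1 ranked 18 from the highest among the 22 chromosomes and joined chromosomes of the file. No bin of chromosome 8 or of Y had a value in every cell. Both are therefore missing from this ranking and from the rest of the genome. Chromosome 2, of like length, had a contact share of 33.7% ± 5.12, and chromosome 1 was below chromosome 2 in 49 of 51 cells.

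**Figure D1:**
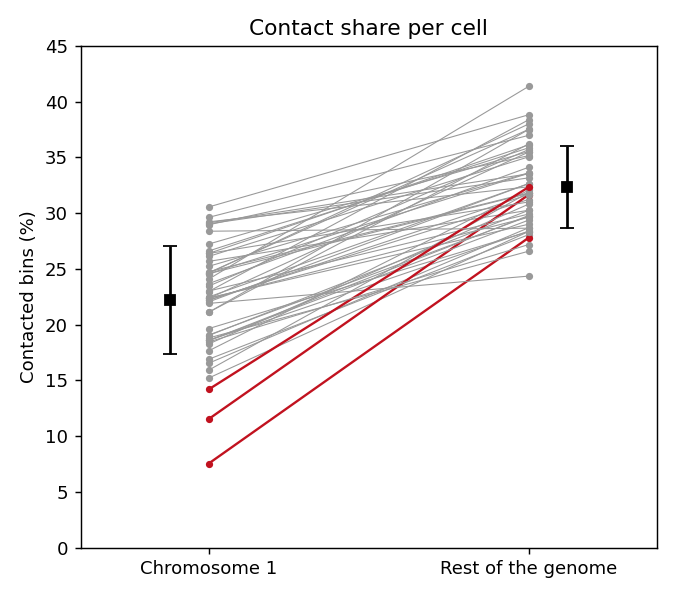
Contact share of chromosome 1 (left) and of the rest of the genome (right), in percent of bins, with 1 line per cell and squares with bars for the mean and SD over 51 cells. Every line ends higher on the right, and cells 18, 19 and 50 (red) have the lowest shares of chromosome 1 beside shares of 27.8%, 31.6% and 32.3% in the rest.

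The low share came with many bins that were never or rarely contacted. On chromosome 1, 1125 bins (49.9%) were contacted in no cell, against 37.7% of the 24329 bins of the rest of the genome. For a bin with reads, contact in 0 of 51 cells still allows a frequency of up to 5.88% (3 counts of 51). Of the chromosome 1 bins, 251 held no read in any cell (11.1%), against 5.42% of bins on chromosome 2. Among the 22 chromosomes and joined chromosomes of the file, such bins ranged from 1.46% of chromosome 18 to 37.2% of joined chromosome 22:9. Those had the highest and the lowest contact share. On chromosomes 16, 17 and 19 and joined chromosome 9:22, bins without a read were also more common than on chromosome 1. A link between such bins and contact was not tested. Bins without a read had a ratio of 0 in every cell, but their expected signal is not known. How far their frequency is bounded is therefore not known either. Leaving them out removes only bins without contact. The contact share was then 25.0% on chromosome 1 and 34.8% in the rest.

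Bins contacted by nearly every cell were scarcer. Contact in at least 80% of cells was seen in 255 chromosome 1 bins (11.3%), against 21.8% of bins in the rest. Contact in at least 90% was seen in 138 bins (6.12%), against 13.4%. By contrast, bins contacted in over 20% and under 80% of cells were about as common, with 472 bins (20.9%) against 22.2%. Where chromosome 1 was in contact, the signal was similar, with a median OE of contacts of 2.22 on chromosome 1 and 2.41 in the rest. Near the threshold, 2.09% of all chromosome 1 values were from 1 to under 1.2 and 2.25% were from 0.8 to under 1. Values of 0 made up 61.3% on chromosome 1 and 49.1% in the rest. Values from 1 to under 2 made up 9.43% against 11.7%, and values of at least 2 made up 12.8% against 20.7%.

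Contact was distributed very unevenly along the chromosome. The longest inner stretch without values ran from 121500001 to 142500000. In hg19 it holds the centromere, and it was used to split the arms into a long arm of 1050 bins and a short arm of 1205 bins. The arms as wholes were alike, with contact in 23.0% ± 6.35 of long arm bins and 21.5% ± 4.63 of short arm bins. The difference of 1.53 points ± 5.17 was within the spread between cells, was positive in 33 cells and negative in 18, and was -0.0307 points when bins without a read were left out.

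**Figure D2:**
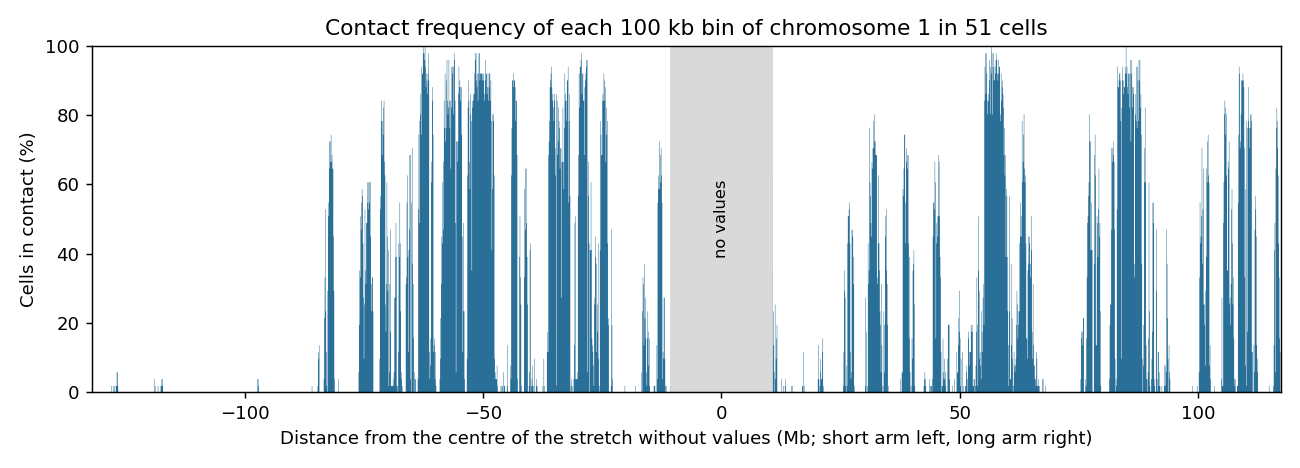
Contact frequency of each 100 kb bin of chromosome 1 (vertical axis, percent of 51 cells) against distance from the centre of the longest stretch without values (Mb), which is shaded. Single bins without a value are drawn at 0. The left end is almost free of contact, and blocks of bins above 80% stand in the middle of the short arm and in the long arm.

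On the short arm, the outer 40 Mb were almost free of contact and the middle was rich in it. The first 4 windows of 10 Mb had mean contact shares of 0.243%, 0.225%, 0% and 0.098%. No cell contacted any of the 100 bins from 20000001 to 30000000, of which 37 held no read in any cell. The share was then 6% from 40000001 to 50000000 and 17.0% ± 11.1 in the next window. It was highest from 70000001 to 80000000, at 56.7% ± 11.9, with 26% in cell 24, a median of 60% and 78% in cell 13. This window exceeded the cell's share for the rest of the genome in 50 of 51 cells. The next window, from 80000001 to 90000000, had 50.8% ± 8.80 and exceeded it in 49 cells. Towards the centromere the share was 10.3% ± 7.44 from 110000001 to 120000000.

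The long arm alternated between rich and poor windows. Next to the centromere, the 58 measured bins up to 150000000 were contacted in 4.29% ± 3.09, and those from there to 160000000 in 7.24% ± 6.19. Intermediate shares of 19.4% to 34.5% followed up to 200000000. The window from 210000001 to 220000000 had the highest share of the long arm, at 56.3% ± 13.7, with 10% in cell 18, a median of 60% and 74% in cell 38. It stood between a window of 7.96% ± 5.65 before it and one of 9.55% ± 6.82 after it. Of the 24 windows, 3 had a mean share of at least 50%, 7 lay above the mean of the rest of the genome, and 10 lay under 10%.

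The 2 ends of the chromosome also differed. Within 5 Mb of the last measured bin of the long arm, 13.2% ± 6.45 of bins were contacted, and 2 of the 51 cells had none. Within 5 Mb of the first measured bin of the short arm the share was 0.167% ± 1.19, and 50 cells had none. At the short arm end, 23 of the 47 bins held no read in any cell, against 6 of 50 at the long arm end.

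Stretches contacted in at most 5% of cells were the most extensive feature of the chromosome. They included 1325 bins (58.8%), against 45.5% of bins in the rest, and formed 115 runs with a total of 132.5 Mb, and 26 of these were at least 1 Mb long. The longest alone, of 30.1 Mb from 17200001 to 47300000, held 13.3% of the measured bins of chromosome 1. On the gene map it carries genes known from blood cells. Among them are RUNX3, a transcription factor of blood lineages, LCK, a kinase of T cell signalling, and CSF3R, the receptor for granulocyte colony-stimulating factor. The same stretch also carries CSMD2, a brain gene described below. In the median cell it held 0.00424% of all reads, although its bins were 1.13% of those measured, and the highest cell had 0.0793%.

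Only 7 contacts were called in that stretch, and 5 of them lay close together. Cells 33 and 38 were both in contact with the bins from 34500001 to 34600000 and from 34700001 to 34800000, and cell 33 also with the next bin. The bin from 34700001 held 29 reads in cell 33 (OE 2.98) and 21 reads in cell 38 (OE 1.59). These bins, in and next to CSMD2, a very long gene expressed in brain, had at least 1 read in 14 to 18 of the 51 cells. The other contacts were single bins in cell 32 (46000001 to 46100000) and cell 41 (47200001 to 47300000). The bins were not named in advance and were picked out after their values were seen.

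The other 4 long stretches of this kind were shorter and had slightly more contact, though very little. The region from 5300001 to 13400000, which holds the glycolytic enzyme gene ENO1 and the growth kinase gene MTOR, was contacted in 0.0968% ± 0.335 of bins. The region from 198100001 to 206000000, with PTPRC (the leukocyte surface phosphatase CD45) and MDM4 (a p53 inhibitor), stood at 0.273% ± 0.852. The regions from 109000001 to 115100000, with the macrophage growth factor gene CSF1, and from 225900001 to 232000000, with the DNA repair gene PARP1 and the vesicle transport gene ARF1, both stood at 0.129%, with SDs of 0.445 and 0.553. In each of these 4 regions, 45 to 48 cells had no contact at all. They were between 6.1 and 8.1 Mb long, and 4 to 20 of their bins held no read in any cell.

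Bins that were often contacted lay in blocks. A contact domain was taken as at least 3 neighbouring bins with a contact frequency of at least 50%. Bins of this frequency made up 22.5% of chromosome 1, against 33.0% of the rest. There were 40 domains, 22 on the long arm and 18 on the short arm, from 0.3 to 4.5 Mb long with a median of 0.9 Mb. They covered 20.1% of the measured bins of chromosome 1 and held 73.3% ± 7.25 of a cell's contacts on it (lowest 60.7%, highest 89.7%). The domains were picked by contact frequency in these same cells, so a high share of the contacts follows in part from their definition.

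The 6 domains of at least 2 Mb were contacted by every cell in some part. The longest, of 4.5 Mb from 187000001 to 191500000, lies in a gene desert of the long arm with BRINP3, a gene active in neurons. It was contacted in 88.6% ± 12.6 of its bins, with 44.4% in cell 18, a median of 91.1% and 12 cells in contact over its whole length. On the short arm, the 4.1 Mb domain from 79600001 to 83700000 with ADGRL2, a latrophilin receptor of synapses, had 90.1% ± 15.0 and 18 cells in contact over its whole length.

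Further long domains lie on the short arm. The domain from 68600001 to 70600000 includes LRRC7, a gene of neuronal synapses, and had the highest share of the 40, at 91.1% ± 13.0. The domain from 101800001 to 103800000 includes OLFM3 and COL11A1, a cartilage collagen gene, and had 87.4% ± 16.1. The domain from 73600001 to 76100000 had 84.9% ± 17.4. In all 6 domains the lowest cell had between 30% and 44.4% of the bins in contact.

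Some shorter domains fall on long or clustered genes of other tissues. The domain from 237200001 to 237900000 lies on RYR2, the calcium release channel of heart muscle, and was contacted in 75.1% ± 29.9 of its bins. The domain from 240200001 to 241600000, with FMN2 and RGS7, had 82.2% ± 23.1, and cell 39 had no contact in it. The domain from 248100001 to 248700000, near the end of the long arm in a cluster of olfactory receptor genes such as OR2M3, had 72.5% ± 27.9, where the expected signal was low, a median of 170 against 319 for all chromosome 1 bins with reads.

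**Figure D3:**
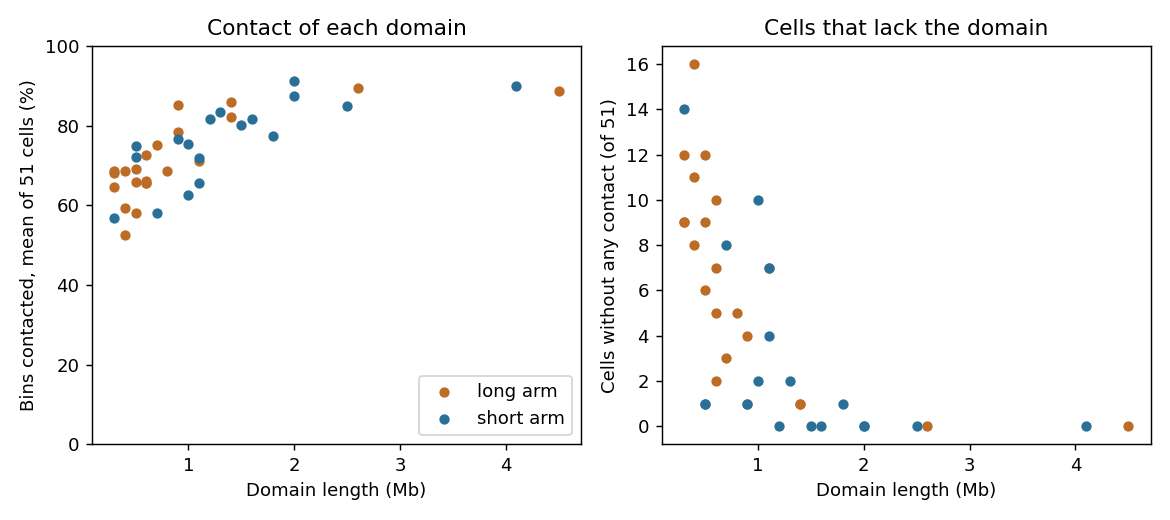
For each of the 40 contact domains, the mean share of bins in contact over 51 cells (left, percent) and the number of cells without any contact (right), against domain length (Mb), with long arm domains in orange and short arm domains in blue. The 6 domains of at least 2 Mb lie at 84.9% to 91.1% with 0 cells lacking them, while up to 16 cells lacked a domain under 1 Mb.

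Longer domains were held by more cells. The median of the domains' mean contact shares was 89.1% for the 6 domains of at least 2 Mb, 78.8% for the 12 of 1 Mb to under 2 Mb and 68.3% for the 22 under 1 Mb. A cell without any contact was found for 0 of the 6, 9 of the 12 and 22 of the 22. Over the 40 domains, length and mean share had a Spearman's rho of 0.79 and a Pearson's r of 0.73. Both come from the same calls, and a longer domain has more bins in which a contact can fall, so the counts of cells without contact are linked to length by construction. Mean share and length are linked by the definition as well. A domain ends where contact frequency falls below the level that defines it, and neighbouring bins often had similar frequencies. A higher peak can therefore give a longer run, and edge bins weigh more in a short one. Whether the trend goes beyond this link was not tested.

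The cores of these domains were the runs contacted in at least 90% of cells, of which there were 47, with a total of 13.8 Mb. The longest ran for 1.5 Mb from 188800001 to 190300000 inside the BRINP3 domain, with contact in 93.9% ± 11.8 of its bins and 34 cells in contact over its whole length. The next ran for 1.2 Mb from 80900001 to 82100000, with 92.6% ± 16.6 and 16.7% in cell 15. The third ran for 0.9 Mb from 69000001 to 69900000, with 96.1% ± 7.64 and no cell under 66.7%. Of the 4 runs of 0.5 Mb that tied for the next place, those from 80100001, 103300001 and 240900001 had 94.9%, 93.7% and 90.6%. The last of them, in the RGS7 domain, had no contact in cells 19 and 39.

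Contact in all 51 cells was found for 4 bins of chromosome 1 (0.177%), against 0.884% of bins in the rest. The bin from 69300001 to 69400000 had its lowest OE of 1.01 in cell 24, a median of 2.44 and its highest of 7.16 in cell 42. For the bin from 69700001 to 69800000 these values were 1.09 in cell 15, 2.91 and 8.75 in cell 52. Both lie in the LRRC7 domain, and the lowest values show how close the first one came to missing the threshold.

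The other such bins lie on the long arm. The bin from 188500001 to 188600000, in the BRINP3 domain, had 1.19 in cell 38, a median of 2.84 and 7.57 in cell 9. The bin from 216700001 to 216800000, in ESRRG, an orphan nuclear receptor gene, had 1.24 in cell 41, a median of 3.21 and 8.58 in cell 42. At an OE of at least 2 these 4 bins would have counted as contacted in 34 to 43 cells. The fewest reads behind a call in them were 2, in the bin from 69300001.

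Bins contacted in 20% to 80% of cells formed 138 runs with a total of 47.2 Mb, in which cells differed widely. Of the 5 longest, 4 are described, which lay around AGBL4, a tubulin-modifying enzyme gene, DAB1, a gene of the reelin pathway of neurons, RGS4 and RGS5, regulators of G protein signalling, and PRRX1, a homeobox gene of mesenchyme. Their frequency chose them, and their values are given as a description.

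Within these regions, cells ranged from no contact to contact everywhere. The region from 57000001 to 58900000 (DAB1) was contacted in 44.2% ± 33.9 of its bins, with 8 cells at none and 1 cell at all of them. The region from 49300001 to 50700000 (AGBL4) had 59.0% ± 33.6, with 7 cells at none and 4 at all. On the long arm, the region from 162600001 to 163900000 (RGS4 and RGS5) had 57.6% ± 33.1, with 7 cells at none and 5 at all. The region from 169900001 to 171200000 (PRRX1) had 62.3% ± 33.3, with 3 cells at none and 11 at all. Most cells were thus in partial contact, 37 to 42 of the 51 in each region. The level depended on the threshold: at an OE of at least 2 the DAB1 region stood at 14.0% and the PRRX1 region at 33.5%, the lowest and the highest of the 4.

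**Figure D4:**
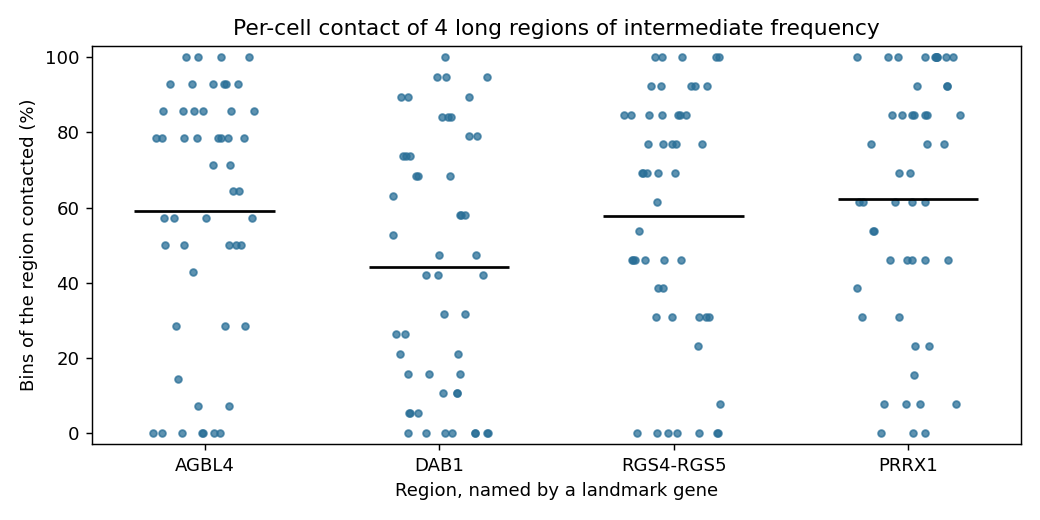
Share of bins in contact in each of 51 cells (points, percent) for 4 of the 5 longest regions contacted in 20% to 80% of cells, with the mean as a bar and points spread sideways only to show them apart. Points run from 0% to 100% in every region, with groups of 3 to 8 cells at 0%.

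Some of these regions varied together over the 51 cells. The AGBL4 and DAB1 regions, 6.3 Mb apart, had a Spearman's rho of 0.57 and a Pearson's r of 0.56. With contact taken as at least 50% of a region's bins, their pattern was uneven: both were in contact in 22 cells, only AGBL4 in 15, only DAB1 in 1 and neither in 13. In total AGBL4 was in contact in 37 cells and DAB1 in 23. The excess of cells with only AGBL4 over those with only DAB1 follows from these totals. The PRRX1 region, 6 Mb from the RGS region, had a Spearman's rho of 0.48 and a Pearson's r of 0.56 with it. Across the arms, the DAB1 region had a Spearman's rho of 0.36 with the RGS region and 0.18 with the PRRX1 region. For the AGBL4 region these values were 0.16 and 0.03. All these correlations share the depth of the cells.

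The uneven pattern depended on the threshold. At an OE of at least 0.5, only AGBL4 was in contact in 10 cells and only DAB1 in 7. With every cell thinned to 50978 reads these counts were 13 and 3. At an OE of at least 2 they were 9 and 2, with both in contact in 2 cells.

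The same was examined over distance for the 472 bins of intermediate frequency, after subtracting each cell's share for the rest of the genome. Adjacent bins had a mean correlation over cells of 0.48, which was 0.32 at a distance of 1 Mb, 0.12 both at 10 Mb and at 50 Mb, and 0.07 at 100 Mb. Bins on different arms had a mean of 0.07, against 0.02 with bins of other chromosomes. All bins of a cell share its depth and the subtracted value. Windows behaved alike: over the 14 windows with a contact share of at least 10%, the median Pearson's r was 0.48 for the 10 neighbouring pairs, 0.32 for the 32 other pairs within an arm and 0.22 for the 49 pairs across arms.

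Uninterrupted contact was on average shorter on chromosome 1, by about as much as cells differed. The mean length of an uninterrupted run of contacted bins in a cell was 0.460 Mb ± 0.0928 on chromosome 1 and 0.541 Mb ± 0.0802 in the rest of the genome. The difference within a cell was -0.0812 Mb ± 0.0786, negative in 45 cells and positive in 6. The chromosome 1 value ranged from 0.233 Mb in cell 18 to 0.642 Mb in cell 23. The longest run of a cell measured 1.3 Mb in cell 18, 4.3 Mb in the median cell and 5.7 Mb in cells 27, 46 and 49. Those of cells 27 and 46 were the same stretch, from 78600001 to 84300000 with ADGRL2, and that of cell 49 ran from 186400001 to 192100000 with BRINP3. With all cells thinned to 50978 reads, the run length was 0.348 Mb ± 0.0594 on chromosome 1 and 0.410 Mb ± 0.0310 in the rest, and chromosome 1 was shorter in 46 cells.

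Single cells differed in how much of chromosome 1 was in contact. The lowest shares relative to the rest of the genome were those of cells 18, 19 and 50, with 7.54%, 11.5% and 14.19% on chromosome 1 beside 27.8%, 31.6% and 32.3% in the rest. Of the 14 windows with a mean share of at least 10%, cells 18 and 19 lay below the mean in all 14 and cell 50 in 12. Cell 18 had at least 50% of the bins in contact in 11 of the 40 domains and no contact in 20. Cells 19 and 50 had 13 and 20 domains at that level and no contact in 15 each, against a median of 34 domains at that level over all cells.

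None of these cells was the shallowest, but cells 18 and 19 lay below the median of 142540 reads. Cell 18 had 80662 reads, cell 19 had 110037 and cell 50 had 244070, out of a range of 50978 to 316463. From the fewest reads up, these cells ranked 5, 13 and 47 of 51. Once all cells were thinned to 50978 reads, they were still the 3 lowest, with differences from the rest of -19.8, -19.7 and -17.3 points. Measured against the spread between cells, chromosome 1 was the lowest of the 22 chromosomes in cell 19. In cell 18 chromosome 12 was lower, and in cell 50 chromosome 15 was. Below their own mean difference were 6, 7 and 11 chromosomes in cells 18, 19 and 50. Each difference is taken against the rest of the same cell, so all chromosomes cannot be low at once. The counts therefore cannot tell whether the low contact was shared. In the rest of the genome as a whole, cells 18, 19 and 50 had 27.8%, 31.6% and 32.3%, against a mean of 32.3% ± 3.64 over all cells.

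**Figure D5:**
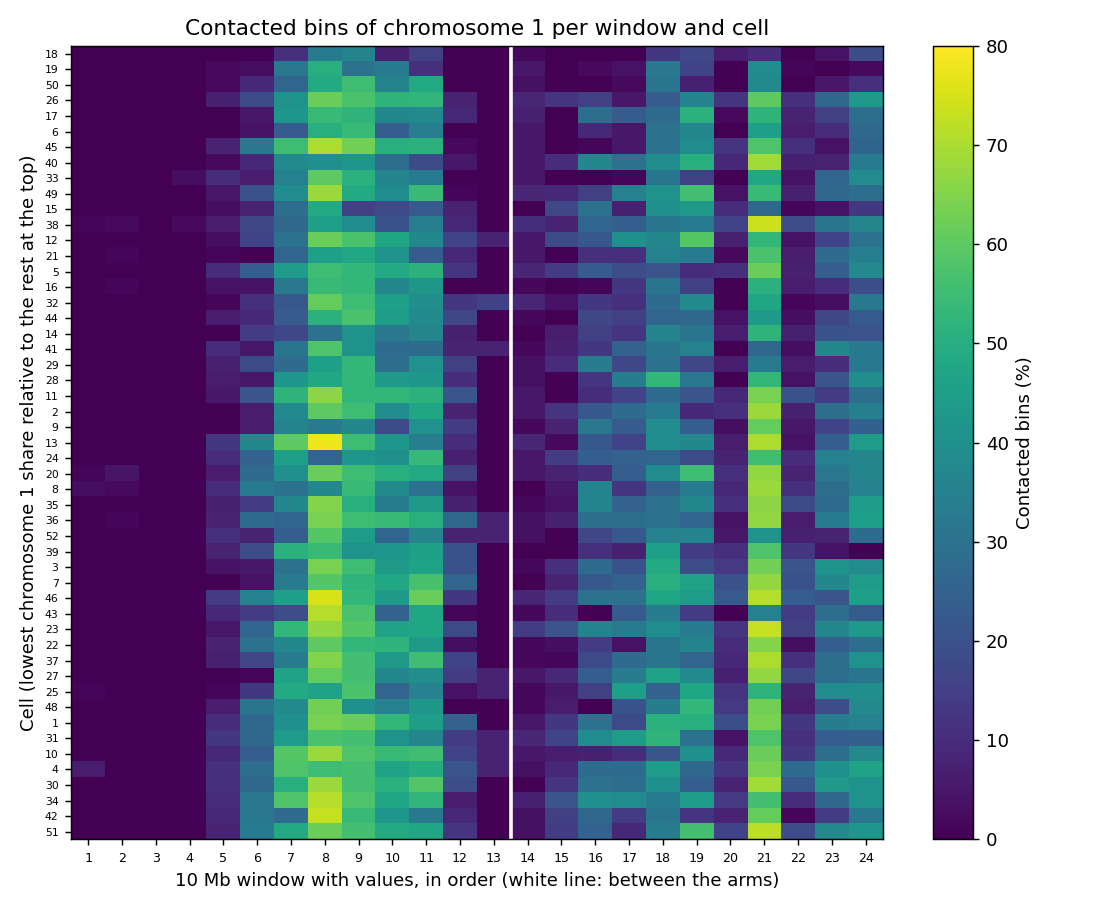
Share of contacted bins (colour, percent) in each of the 24 windows of 10 Mb with values (columns, short arm left of the white line) in each of 51 cells (rows), ordered by the share of chromosome 1 relative to the rest with the lowest at the top. The first 4 columns are dark in nearly every row, columns 8, 9 and 21 are the brightest, and the top 3 rows (cells 18, 19 and 50) are darker over most columns.

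At the other end, cell 51 had 28.4% of chromosome 1 bins in contact and 28.7% in the rest, and cell 42 had 21.9% and 24.4%. The highest shares of chromosome 1 were 30.6% in cell 46 and 29.6% in cell 23. In 3 cells at least 50% of the bins were in contact in all 40 domains. Shares of the long and the short arm varied together over the 51 cells, with a Spearman's rho of 0.55 and a Pearson's r of 0.60. Pearson's r was 0.51 without the 2 cells farthest from the median on the short arm, and 0.47 without cells 18, 19 and 50.

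Some cells held 1 arm more than the other. Cell 40 had contact in 27.9% of long arm bins and 15.2% of short arm bins, and cell 38 in 28.8% and 16.8%. Cells 45 and 50 went the other way, with 17.8% and 27.5% in cell 45 and 9.05% and 18.7% in cell 50. The chromosome 1 share was higher in cells with more reads (Pearson's r = 0.35, Spearman's rho = 0.39 over 51 cells). With background, taken as the share of a cell's reads that fell in bins seldom contacted, it had a Pearson's r of 0.34 and a rho of 0.43. The difference from the rest had a Pearson's r of -0.20 with reads (rho -0.14) and of -0.18 with background (rho -0.09). Without the 2 cells farthest from the median of reads or of background, these r were -0.09 and -0.08. The part of depth and background in the differences between cells was not tested further.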

How the data were processed

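The deposited values are the authors' ratios of observed to expected signal (OE) for 100 kb bins, 1 column per cell. Cutadapt, Bowtie2 2.1.0 and hg19 are named in the submitters' processing notes. How the expected signal was made is not given in the sources used here. Cell 47 was not analysed here. Each value above 0 equalled, within 0.02 reads, whole reads scaled by 1 factor per cell and divided by 1 whole number per bin, called the expected number. Reads per cell ranged from 50978 to 316463 (median 142540), and a median chromosome 1 bin at an OE of 1 held 2.14 reads in cell 9 and 13.3 in cell 26. In no bin did reads exceed the expected number. The labels mention no molecular identifiers. On simulated data over 26584 bins, 99.999% of values above 0 were recovered, and 30 of 30 planted domains were found.

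Arms, domains, windows and runs are as defined in the results. The named regions are the 5 longest runs of each kind, ties kept, and the bins contacted in all cells; some of these regions and domains are not reported here. The members and lists were chosen with earlier results of these data known. Alternatives were other OE thresholds, bins, cells and a common depth. Planned gene lists and gene density were not run, since hg19 gene positions were not used here. Python 3.11.15, numpy 2.4.6, scipy 1.17.1 and pandas 2.3.3 were used.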

Additional observations from a re-analysis of the deposited data

How the results depend on the processing

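Of 130 values recomputed under the alternatives, 110 stayed within 1 SD over cells and 20 did not. Counts were judged within 1.5 times and the correlation of the arms within a fixed margin instead. This SD is the spread among single cells and not an error. A result that differs widely between cells can therefore shift far and still stay within it. The DAB1 region (SD 33.9 points) did so, although its share fell from 44.2% to 14.0% with contact from an OE of 2. The tally is thus no measure of stability for such results. The arm difference, which lay within its spread, went to -0.0307 points without bins lacking a read and to 3.20 points at an OE of at least 0.5. At an OE of at least 0.5, the chromosome 1 contact share was 28.4%, the bins contacted in at least 80% of cells numbered 394 and the mean run length was 0.557 Mb. At an OE of at least 2 these were 12.8%, 13 bins and 0.285 Mb, with 24 domains. These shifts follow from the threshold. Thinning all cells to 50978 reads gave a run length of 0.348 Mb, and the cause was not tested. Counting domains of 1 bin or more gave 79. Against chromosomes 2 to 7 alone the difference of chromosome 1 was -14.7 points. It was -11.3 to -7.87 under the other settings. Chromosome 1 was below the rest in 51 cells at an OE of at least 0.5, and in 50 both at an OE of at least 2 and after thinning. Thinned, the rarely contacted regions stood at 0.117% to 0.450%, and the runs contacted in at least 90% of cells at 85.1% to 91.3%. With contact from an OE of 2, those runs were at 67.1% to 73.6% and the regions of 20% to 80% at 14.0% to 33.5%. With contact from an OE of 0.5, the rarely contacted regions were at 0.267% to 1.22%. The omission of cells 18, 19 and 50 was chosen after the data were seen, and left a difference of -9.54 points and 43 domains. No paired analysis was possible because the cells form 1 group. Gene lists and gene density were not run. Depth limits the call of a single bin, above all in cell 9.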

Other observations

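The flanks of the stretch without values differed in contact. On its long arm side, 5.93% ± 4.27 of the 39 bins within 5 Mb were contacted, and on its short arm side 16.5% ± 10.8 of 48 bins (SD, n = 51). The short arm flank had no contact in 10 cells and contact in up to 37.5% of bins in others. Of the 24 windows, that from 190000001 to 200000000 varied most between cells, with 7% in cell 50, a median of 33% and 59% in cell 12 (SD 13.9 points).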
